A study of Gallus gallus and Columba livia with 18 samples.

Results

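The first step of chicken retinal development was followed here from E3 to E5, that is from days 3 to 3.5 to days 5 to 5.5 of incubation at 37 °C. Each stage was represented by 3 messenger RNA libraries of whole dissected retinas of Gallus gallus embryos, and each library came from 1 to 6 retinas pooled in Trizol, with 1 µg of total RNA going into a stranded library kit. No treatment, strain or sex is given in the labels, and every embryo was otherwise untreated as far as they say. Rows of the chicken table were kept when they reached an FPKM (fragments per kilobase of transcript, corrected for library depth) of at least 1 at E3 or at E5, which left 13625 of 24708 rows. The rule used the level at either stage. A gene under 1 at E3 therefore entered only by being higher at E5, and a gene under 1 at E5 only by being higher at E3. Of these rows 13529 were above 0 at both stages and were compared, and the other 96 are described in the closing section.

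The table gives 1 pooled FPKM per stage for the 3 libraries. No value therefore has an SD, and no difference below has a replicate check or a p-value. The change of a gene is log2(FPKM + 1) at E5 minus log2(FPKM + 1) at E3, a scale that understates the change of low genes, and a gene is counted as higher or lower when its change is at least 1 in size. FPKM is a level per transcript length, so levels of different genes can be set side by side. The E8 values (days 8 to 8.5, also 3 libraries) are given beside the others as the later course. Whole retinas hold several cell types, and fewer cells of a type cannot be told apart from less RNA per cell. Summed FPKM were 735656 at E3 and 702306 at E5, with mitochondrial transcripts at 12.7% and 11.6% of them, and the read total of no library was used here.

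At these stages the optic cup is a neuroepithelium of dividing progenitors, wrapped on its outside by a layer that becomes the retinal pigment epithelium and lying next to the lens, the surface ectoderm and the mesenchyme around the eye. Progenitors are held in division by Notch signalling, in which ligands on one cell activate receptors on its neighbour and so switch on repressors of the HES family. Cells that escape it turn on proneural factors such as ATOH7 and leave the cell cycle as ganglion cells, the first-born neurons of the retina, which send their axons into the optic nerve.

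The tissue label was checked first against its defining markers. PAX6, the eye field regulator, had 301 FPKM at E3 and 253 at E5. SIX6, another eye field factor, was at 76.1 and 82.6. LHX2 was at 88.2 and 57.8, and SOX2 at 69.5 and 101. These 4 markers were thus high at both stages and within 1 of their E3 level on the log2 scale, and RAX and SIX3 were not analysed here. No Hox gene, a mark of hindbrain and trunk tissue, was among the rows compared, and 22 of the 24 that were matched were listed at 0 at both stages.

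Most genes stood at nearly the same level at both stages. The median change over the 13529 rows was −0.01, the central 90% of changes lay between −0.49 and 0.65, and 11827 rows (87.4%) stayed within 0.5. The change was above 0 in 6469 rows, the background for the counts of changes above or below 0 given for lists. At E5 286 rows were higher by at least 1, which is 2.11% of the rows, and 145 were lower, which is 1.07%. A change of at least 2 was seen in 25 rows on the higher side and 15 on the lower. Among symbols listed in 1 row each, on which the counts of gene groups below are based, 1.86% of 9190 were higher and 0.816% lower.

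**Figure D1:**
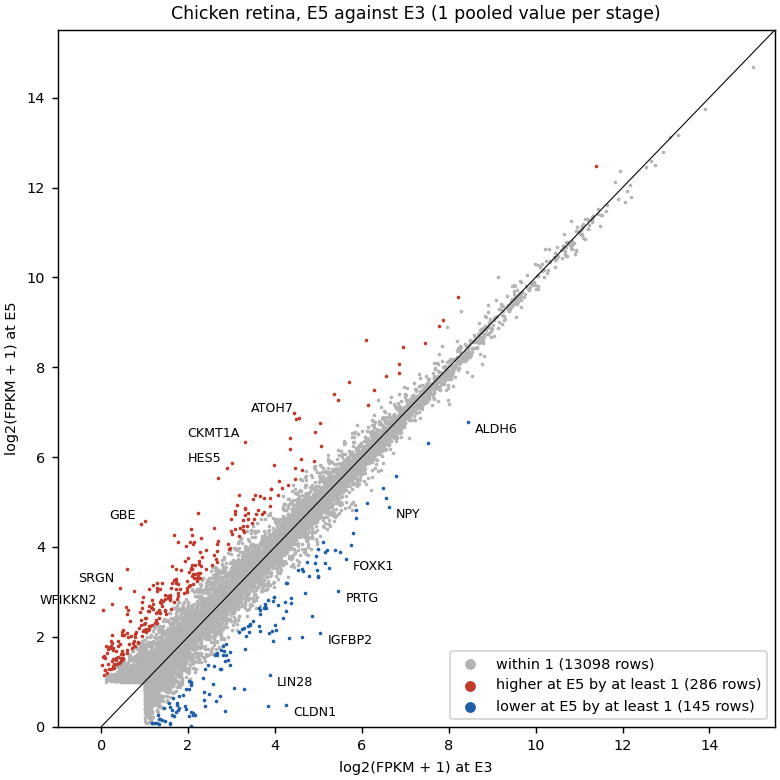
Each point is 1 row of the chicken table, with log2(FPKM + 1) at E3 on the horizontal axis and at E5 on the vertical axis. The line marks equal levels, the 286 rows higher by at least 1 are red and the 145 lower rows blue, and most of both stand at low or middle levels.

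The share of rows past 1 depended on the level. Of 2060 rows with a mean FPKM between 2 and 5, 3.88% were higher and 1.60% lower. Of 965 rows with a mean above 100 the shares were 1.45% and 0.207%. In the other classes they were 2.81% and 1.55% under 2, 2.16% and 1.16% from 5 to 20, and 0.839% and 0.603% from 20 to 100. The higher share thus did not fall steadily with level. The genes with the highest FPKM were close to level: COX1, a mitochondrial subunit of cytochrome oxidase, was at 9970 at E3 and 9258 at E5, and RPL29, a protein of the large ribosomal subunit, at 7844 and 7123. FABP7, the fatty acid binding protein of neural progenitors, was at 3611 and 4452, and CA2, a carbonic anhydrase, at 1792 and 2428, which was one of the larger gains in FPKM itself. GAPDH went from 4267 to 3299, and a further row under that symbol was listed at 0 at both stages.

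**Figure D2:**
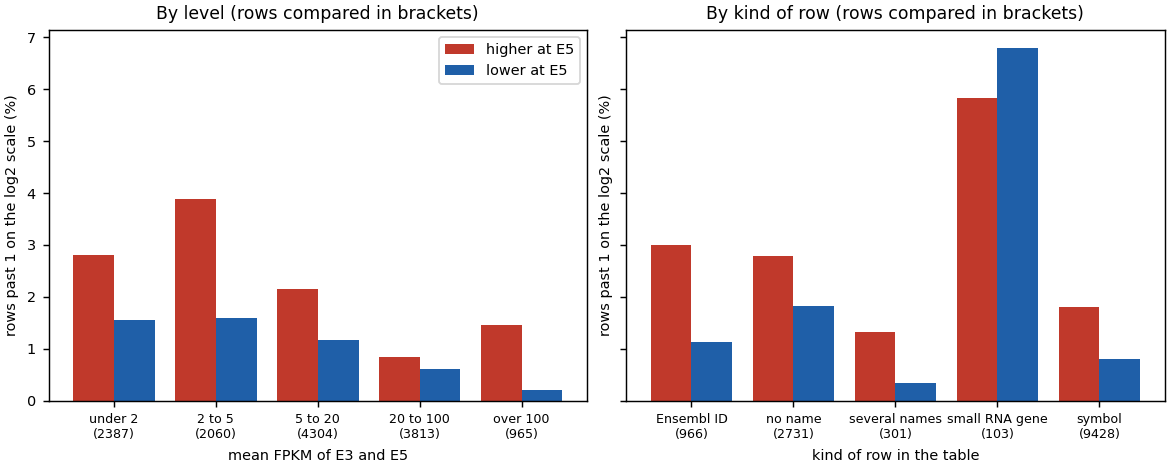
Bars give the percent of compared rows that were higher (red) or lower (blue) at E5 by at least 1, by mean FPKM on the left and by kind of row on the right, with the number of rows in brackets. Small RNA genes, classed by how their symbols begin, stand apart with 12.6% of 103 rows past 1 in either direction, against 2.62% of 9428 rows with other symbols.

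The 25 highest changes among symbols with an FPKM of at least 5 mixed melanin genes, Notch genes, neuronal genes and genes of other kinds. GBE, globin E of the bird eye, was at 0.883 FPKM at E3, 21.7 at E5 and 1.61 at E8, with 3.59 the highest change of all. It stands on chromosome 1 from position 51038039 to 51043486. CKMT1A, a mitochondrial creatine kinase, was at 8.88, 79.6 and 148, and so was still higher at E8. These are different courses: GBE was high at E5 alone among the 3 stages.

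Other genes among the 25 highest changes had courses of both kinds. SRGN, the core protein of the proteoglycan serglycin, was at 0.352, 7.51 and 0.202. IL1RL1, the receptor of interleukin 33, was at 2.18, 18.2 and 0.296. WFIKKN2, a secreted protein that binds growth factors of the myostatin kind, was at 0.0278, 5.08 and 1.41. In all 3 of these genes the E8 level was well under that of E5. EPAS1, the hypoxia-inducible factor 2 alpha and one of 2 higher genes of the glycolysis and hypoxia list, was at 2.42, 16.2 and 10.9, and NOV, a matricellular protein (CCN3), at 3.21, 20.02 and 9.79. LIMCH1, an activator of non-muscle myosin, was at 1.27, 7.85 and 32.5. NOV and EPAS1 were lower again at E8 but above E3, and LIMCH1 went on to a higher level.

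Among the 25 lowest changes stood genes of the surface ectoderm, genes of early embryonic cells, matrix genes and enzymes. CLDN1, a claudin of epithelial tight junctions, was at 18.0 FPKM at E3, 0.402 at E5 and 0.0441 at E8, the lowest change of all at −3.76. Its row lies on chromosome 9 from 15032187 to 15042588. ANGPTL7, a secreted protein known from the cornea, was at 13.4, 0.376 and 0.103 in its row on chromosome 21, and a row of the same symbol on chromosome 3 was under 0.05 at each stage. RASD2, a small GTPase of the Ras kind, was at 8.74, 0.800 and 0.256. All of these were under 1 FPKM at E5 and lower still at E8.

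The other low changes were less complete. FOXK1, a forkhead transcription factor, was at 48.6, 12.3 and 6.47. MOXD1, a monooxygenase, was at 13.6, 3.26 and 0.224, and COLEC12, a scavenger receptor, at 19.5, 5.78 and 1.38. SH3BGR went from 14.6 to 2.73. NPY, the neuropeptide Y, was at 97.6, 28.5 and 4.74, and PDE6H, the inhibitory subunit of the cone phosphodiesterase, at 34.8, 11.6 and 1.82. POLR2K, a subunit shared by the RNA polymerases, was at 44.5, 13.9 and 37.2 in one row and 110.7, 86.2 and 80.7 in a further one, so its rows differ in size of change and the first of them was nearly back at E8.

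**Figure D3:**
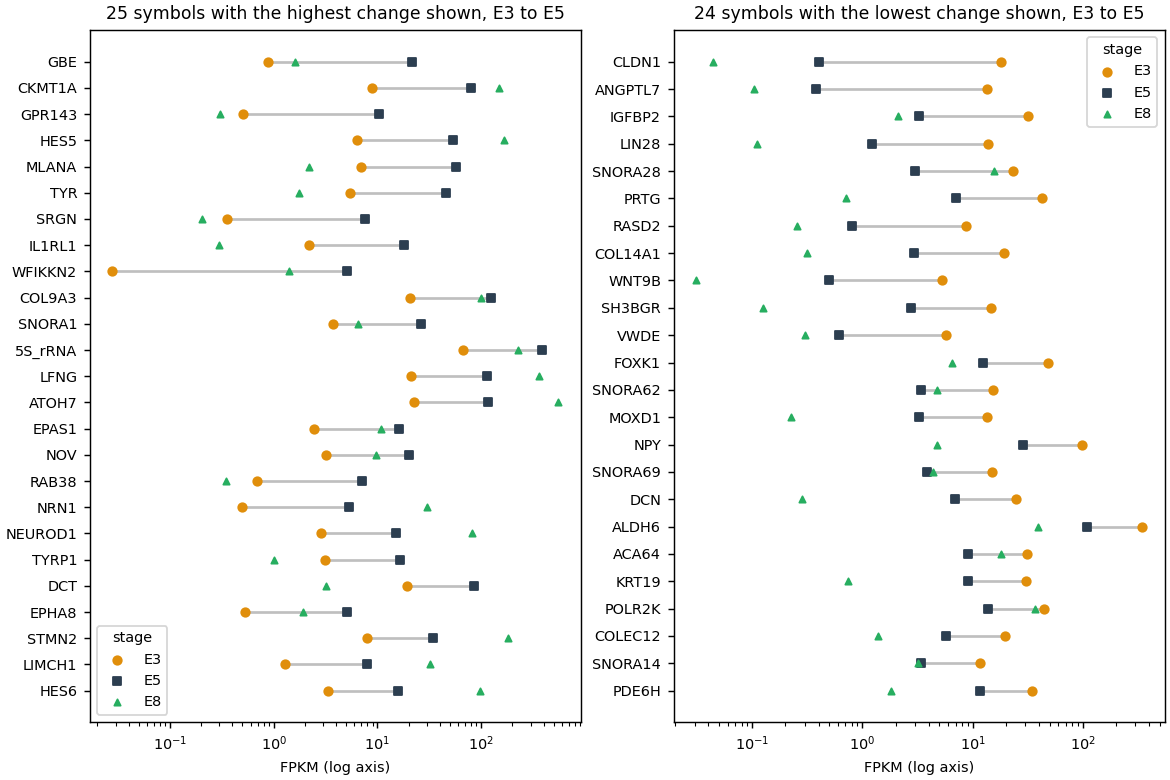
FPKM on a log axis at E3 (circles), E5 (squares) and E8 (triangles) for the 25 symbols with the highest change and 24 of the 25 with the lowest, in order of change. On the left the E8 triangle lies back at the E3 level or below it for melanin genes such as GPR143 and TYR and beyond E5 for HES5 and ATOH7. On the right it lies further down for most genes, and SNORA28 and POLR2K are examples that came back.

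Of the lists, proneural factors had the highest median change, 1.19 over 12 genes compared, although pigment epithelium passed them, 1.57 against 1.25, when an FPKM of at least 5 was required. None of the 12 was lower, and 7 were past 1 on the higher side, among them the Notch ligand DLL4, described below with its pathway. Lists can share genes, so their counts are not separate from each other. ATOH7, the factor needed for ganglion cells, was at 22.4 FPKM at E3, 117 at E5 and 555 at E8, and its locus is shared by 5 rows of the table. NEUROD1 was at 2.85, 15.2 and 82.1, and NEUROG1 at 1.30, 5.16 and 7.27. NHLH1, a further basic helix-loop-helix factor, was at 2.22, 5.83 and 9.43. HES6, which promotes differentiation against the other HES factors, was at 3.34, 15.8 and 97.7. MYT1, a zinc finger factor of new neurons, was at 0.705, 3.17 and 16.6. Each of these 6 factors was higher at E5 than at E3 and higher again at E8. ONECUT1, at 2.47, 5.82 and 16.1, stood just under the threshold with a change of 0.98, and SOX11, a factor of young neurons, was at 41.97 and 45.2.

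In the Notch pathway the changes sat in a few members. A change past 1 was seen in 5 of 29 genes, all on the higher side, and the median over the whole group was 0.08. The ligand DLL4 was at 2.59 FPKM at E3, 10.3 at E5 and 25.4 at E8, and the ligand DLL1 at 27.8, 46.4 and 52.7, a change of 0.72. The receptor NOTCH1 was at 12.4, 33.2 and 87.7. LFNG, the glycosyltransferase that modifies it, was at 21.3, 115 and 361. The effectors differed from each other: HES5 was at 6.39, 53.4 and 165, HEYL at 1.52, 5.02 and 4.49, HEY1 at 46.9, 80.5 and 126, and HES4 at 136, 145 and 78.3. Of the proteases and the ubiquitin ligase that process receptor and ligand, ADAM10 was at 50.1 and 45.4 and MIB1 at 76.7 and 65.4. The genes past 1 were thus a ligand, a receptor, its modifier and effectors, and none was of the processing machinery.

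In the ganglion cell list 9 of 31 genes were past 1 on the higher side and none on the lower, with a median change of 0.47, and 26 of the changes were above 0. Among transcription factors ISL1 was at 0.105 FPKM at E3, 2.12 at E5 and 9.37 at E8, and POU4F2 at 0.998, 4.37 and 9.36. Genes of the growing axon followed: STMN2, a microtubule regulator, was at 7.95, 34.5 and 182, and the neurofilament subunits NEFM and NEFL went from 23.3 to 60.8 and from 21.0 to 52.8. NRN1, a neurite growth protein on the cell surface, was at 0.496, 5.31 and 29.9, and TAGLN3, a neuronal protein of the calponin family, at 8.85, 28.0 and 122. CNTN2, an axonal adhesion molecule, and SNCG, gamma synuclein, stood at 3.42 and 4.91 at E5, from 0.989 and 1.48. Not every gene of the list moved: GAP43, a growth cone protein, was at 24.6 and 22.4, with 67.6 at E8, and ELAVL4, a neuronal RNA-binding protein, at 23.5 and 31.5.

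Many photoreceptor genes were below the minimum level. Of 22 photoreceptor genes matched, 14 were under 1 FPKM at both stages and 8 were compared, of which 4 were higher. NEUROD1, already counted with the proneural factors, was among the 4. OTX2, the factor that sets photoreceptor fate, was at 23.8 FPKM at E3, 51.2 at E5 and 94.3 at E8. RXRG and THRB, nuclear receptors of cones, were at 1.45, 7.14 and 70.4 and at 1.69, 6.00 and 44.4. PDE6H alone in the group was lower by at least 1, with the values given above. Horizontal and amacrine cell genes went both ways, 2 higher and 2 lower of 17. TFAP2D, an AP-2 factor, was at 0.0667, 1.90 and 32.2, while TFAP2A of the same family was at 6.52, 1.78 and 2.68. TFAP2A is also on the surface ectoderm list, so its change cannot be assigned to horizontal or amacrine cells. The median of that group, 0.31, became −0.28 when an FPKM of at least 5 was required.

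Bipolar cell and Müller glia genes had a median change of 0.42 over 20 genes, with 2 higher and 1 lower. SOX9, a factor of progenitors and glia, was at 8.36 FPKM at E3, 17.2 at E5 and 35.6 at E8, and its change was 0.96. VIM, vimentin, was at 475, 666 and 601. RLBP1, the retinaldehyde binding protein of glia and pigment epithelium, was at 10.9, 25.5 and 11.3. CLU, clusterin, was the lower gene, at 57.4, 24.0 and 26.2. At synapses 3 of 39 genes were higher and none lower, SNAP25 of the fusion machinery, SYT4 and SNCG. SNAP25 was at 1.16, 3.75 and 18.3.

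Channels and receptors of mature neurons were mostly near or under the minimum level set here. Of 78 ion channel genes matched, 43 were under 1 FPKM at both stages, and of the 35 compared 2 were higher, TRPM3 and KCNJ8. The cation channel TRPM3 was at 8.70 at E3, 19.3 at E5 and 8.60 at E8. Of 37 neurotransmitter receptor genes compared 1 was higher, the adrenergic receptor ADRA1B, at 0.0163, 1.61 and 0.994. GABRA5, a GABA receptor subunit, had the lowest change of the receptor group, −0.97, with 1.87 and 0.465.

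**Figure D4:**
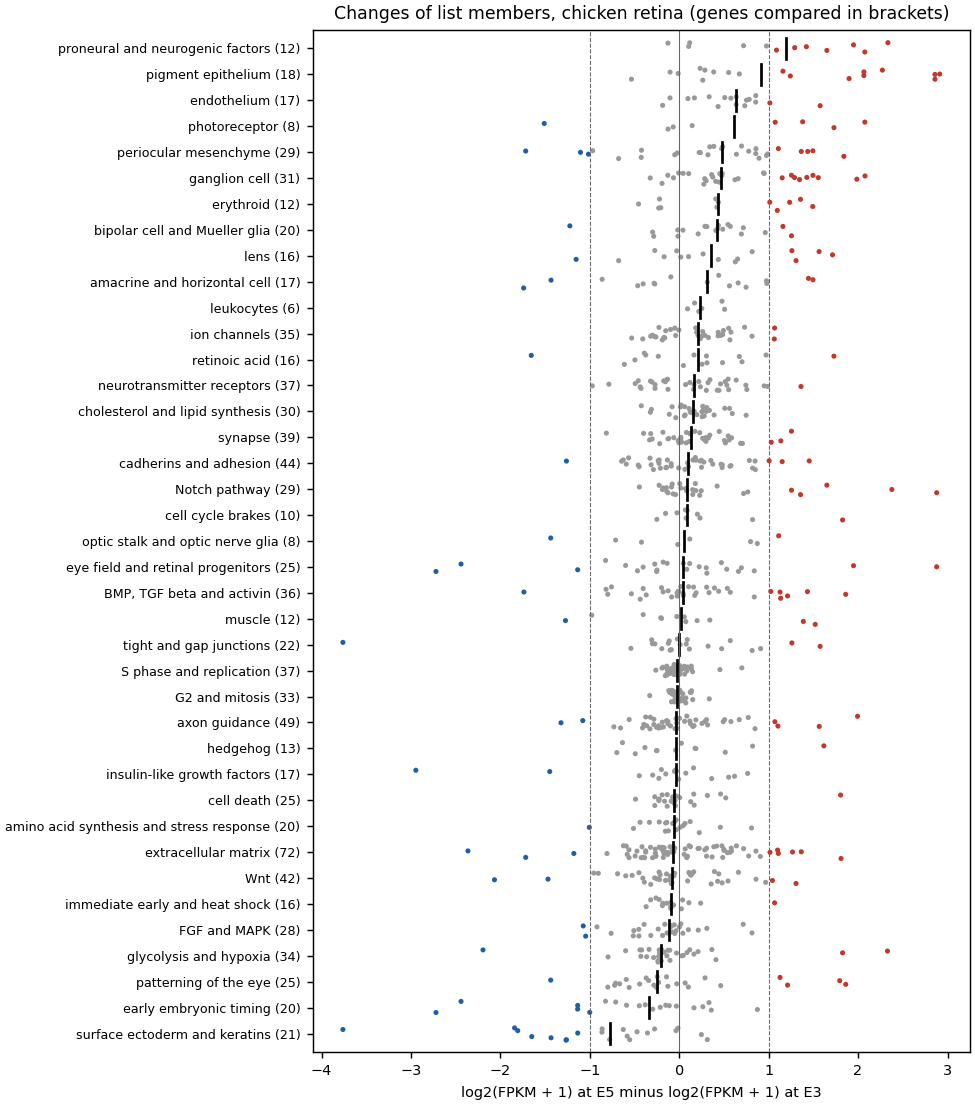
Each point is a gene of the named list, placed by its change in log2(FPKM + 1) from E3 to E5, and the black bar is the median of the list, with the number of genes compared in brackets. Red and blue points are past 1. Proneural factors (1.19) and pigment epithelium (0.92) have the highest medians of the lists and surface ectoderm (−0.78) the lowest, at the pseudocount of 1 used here, while the cell cycle lists cluster around 0.

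None of 37 genes of S phase and replication and none of 33 genes of G2 and mitosis was past 1, and the changes ran from −0.26 to 0.70 and from −0.33 to 0.34. PCNA, the sliding clamp of the replication fork, had 802 FPKM at E3 and 807 at E5. TOP2A, topoisomerase II alpha, was at 237 and 228, and CCNB2, a mitotic cyclin, at 348 and 353. E2F1, a transcription factor of S phase entry, was at 36.3, 59.5 and 174 over E3, E5 and E8 and had the highest change of the S phase group. Both medians were −0.03, and they turned to at most 0.04 when the columns were rescaled to one sum.

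Among 10 cell cycle brakes NDRG1, a gene of differentiation and stress, was the one past 1, at 5.07 FPKM at E3, 20.5 at E5 and 112 at E8. RB1, the retinoblastoma gene, was at 25.7 and 27.1. Among 25 genes of cell death NGFR, the neurotrophin receptor p75, was higher, at 1.62, 8.16 and 25.3. The ribosome, splicing and proteasome families held no gene past 1: the 62 cytosolic ribosomal proteins had changes from −0.31 to 0.32, the 37 splicing factors from −0.20 to 0.43, and the 32 proteasome genes from −0.25 to 0.18. These housekeeping families were thus level between the stages on this scale.

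In the list of early embryonic timing 5 of 20 genes were lower by at least 1, none was higher and 15 were within 1, with a median of −0.34 and 5 of the changes above 0. LIN28 (LIN28A), the RNA-binding protein that blocks let-7 miRNAs, was at 13.7 FPKM at E3, 1.23 at E5 and 0.111 at E8. LIN28B, its paralog, was at 68.5, 30.6 and 15.2. PRTG, the immunoglobulin-type receptor protogenin of early neural tissue, was at 42.9, 7.10 and 0.712. SALL4, a zinc finger factor of pluripotent cells, was at 29.8, 13.0 and 6.43, while SALL1 was at 33.6, 16.3 and 27.6 and so was higher again at E8. HMGA2, a chromatin protein of early progenitors, was at 255, 144 and 76.7, and IGF2BP1, an RNA-binding protein of embryonic cells, at 119, 86.9 and 60.3, both short of 1.

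Of the insulin-like growth factor genes 2 of 17 were lower and none higher. IGFBP2, a binding protein of the pathway, was at 31.9 FPKM at E3, 3.27 at E5 and 2.08 at E8, and the ligand IGF2 at 40.4, 14.2 and 6.47. The receptor IGF1R was at 53.6, 91.7 and 51.4, a change of 0.77 in the other direction.

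The patterning genes of the eye cup had a median of −0.25 over 25 genes, with 4 higher and 1 lower. CHRDL1, the BMP antagonist also called ventroptin, was at 14.7 FPKM at E3, 55.9 at E5 and 60.8 at E8. BAMBI, a decoy receptor of the same pathway, was at 76.8, 179 and 222. BMP2 was at 1.76, 5.03 and 3.53, while BMP4, the dorsal ligand, was at 37.4, 21.1 and 1.46. ZIC1, a zinc finger factor, was at 7.75, 29.4 and 13.5. PAX2, the factor of the optic stalk and ventral cup, was at 26.5, 9.15 and 4.09, and VAX1, another ventral factor, at 45.1, 27.1 and 18.5. TBX5, a dorsal factor, was at 33.8, 20.9 and 17.0. Of BMP4, PAX2, VAX1 and TBX5, PAX2 alone was past 1.

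In the wider BMP, TGF beta and activin list 6 of 36 genes were higher and 1 lower. BMP6 was at 3.05 FPKM at E3, 9.95 at E5 and 1.03 at E8. FST, follistatin, the antagonist of activin, was at 3.22, 0.264 and 0.00958. Receptors and signal carriers were closer to level, with ACVR1 at 45.9 and 49.5 and SMAD5 at 62.8 and 61.8.

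Retinoic acid genes differed by enzyme. ALDH6 (ALDH1A3), which makes retinoic acid in the ventral retina, was at 347 FPKM at E3, 110 at E5 and 39.1 at E8. ALDH1A1, the dorsal enzyme, was at 290, 299 and 278, and ALDH1A2 at 9.03, 6.65 and 0.473. ALDH6 therefore stood above ALDH1A1 at E3 and below it at E5. CYP26A1 and CYP26C1, which break retinoic acid down, were at 18.0 and 11.4 and at 3.14 and 4.80. DHRS3, a retinal reductase, was at 10.3 and 21.2, a change of 0.97. Of 16 genes 1 was higher, RXRG, and 1 lower, ALDH6.

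The FGF and MAPK list had 2 of 28 genes lower and none higher, with 20 of the changes below 0. FGF7 was at 18.2 FPKM at E3, 8.12 at E5 and 2.30 at E8, and FGFRL1, a receptor without a kinase, at 22.1, 10.2 and 5.51. FGF8 was at 60.8, 46.1 and 30.6, and the receptor FGFR1 at 98.7, 71.9 and 29.1. In the Wnt list 2 of 42 genes were higher and 2 lower. The ligands WNT9B and WNT6, at 5.26 and 5.74 FPKM at E3, were at 0.495 and 1.44 at E5, whereas the ligand WNT16 was at 0.755 and 3.34 and the antagonist DKK2 at 0.405 and 1.89. The locus of WNT6 is shared by 17 rows, so its level may be split or merged with theirs. WNT2B, at 19.9 and 36.8, did not reach the threshold. In the hedgehog list HHIP, the hedgehog-binding inhibitor, was the 1 of 13 past 1, at 0.397, 3.28 and 1.02, and the receptor PTCH1 was at 7.56 and 5.56.

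Axon guidance genes were spread around 0, with 4 of 49 higher and 2 lower. EPHA8, an ephrin receptor, was at 0.524 FPKM at E3, 5.07 at E5 and 1.91 at E8, and CXCL12, a chemokine that guides ganglion cell axons, at 8.89, 28.3 and 3.28. ROBO2, a Slit receptor, was at 1.12, 3.44 and 14.8, while its ligand SLIT2 was at 37.0, 21.9 and 10.1 and SLIT1 at 3.91, 7.83 and 24.0. SEMA3A, a secreted repellent, was at 25.8, 11.7 and 7.72, and PLXNC1, a semaphorin receptor, at 9.08, 3.03 and 3.26. The Slit ligands thus differed in direction, and the 2 genes on the lower side were both of the semaphorin system. Over the 20 semaphorin and plexin genes compared, 1 was higher by at least 1 and 2 lower, with a median of −0.06.

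In the extracellular matrix list 6 of 72 genes were higher and 3 lower. COL9A1, a chain of the collagen IX of the vitreous, was at 43.0 FPKM at E3, 153 at E5 and 24.1 at E8. COL9A3, a further chain, was at 20.6, 125 and 100.5 in its row on chromosome 20, and a row of that symbol on chromosome 6 was at 0.499 and 0.188. Because its symbol stands in several rows, COL9A3 is not among the 72. COL5A1 was at 14.1, 37.8 and 58.5, and the elastic fibre protein ELN at 7.08, 18.5 and 0.296. On the lower side COL14A1, a collagen on the surface of fibrils, was at 19.1, 2.91 and 0.316, DCN, the proteoglycan decorin, at 25, 6.91 and 0.284, and NID2, a basement membrane linker, at 23.9, 10.01 and 2.51. Laminin chains were level or lower, with LAMC1 at 47.0 and 38.0 and LAMA1 at 24.6 and 18.7.

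Energy metabolism held few genes past 1 and small shifts of several. Of 34 glycolysis and hypoxia genes 24 had a change below 0, with a median of −0.20, or −0.14 when the columns were rescaled to one sum. LDHB, a lactate dehydrogenase subunit, had 751 FPKM at E3 and 557 at E5, ENO1 at 2843 and 2249, and PGK1 at 529 and 411. The glucose transporter SLC2A1 was at 289 and 385. Nuclear complex I genes had 21 of 29 changes above 0, beside 6469 of all 13529 rows, with a median of 0.14 and none past 1. The complex I rows of the mitochondrial genome, not part of that family, were all lower at E5. Their changes ran from −0.42 for ND1, at 4719 and 3529 FPKM, to −0.07 for MT-ND3. Cholesterol and lipid genes had 24 of 30 changes above 0, a median of 0.15 and none past 1: FDFT1, squalene synthase, was at 62.6, 94.96 and 124 over E3, E5 and E8.

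Several melanin genes had their highest level at E5. Of 25 pigment epithelium genes matched, 18 were compared, of which 9 were higher by at least 1, none was lower and 9 were within 1, with a median change of 0.92. TYR, tyrosinase, was at 5.43 FPKM at E3, 45.7 at E5 and 1.74 at E8, MLANA at 7.01, 57.1 and 2.18, and DCT at 19.5, 84.7 and 3.19. GPR143, a receptor of the melanosome, was at 0.506, 10.3 and 0.302, and RAB38, which sorts melanosome cargo, at 0.688, 7.15 and 0.350. The summed level of the matched genes was 195 at E3, 420 at E5 and 144 at E8, and PMEL was listed at 0. MITF, the master regulator of pigment cells, was at 16.1, 14.9 and 4.59, and so was level from E3 to E5 where the genes just named were higher. How much pigment epithelium each dissection carried was not measured, and its part in these values was not tested.

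Of the lists, surface ectoderm had the lowest median, −0.78 over 21 genes compared of 36 matched, although with a pseudocount of 5 its −0.28 stood above the −0.31 of early embryonic timing. Of the 21 genes 8 were lower by at least 1, none was higher and 19 of the changes were below 0. CLDN1 led it, with the values given above. KRT19, a keratin, was at 30.8 FPKM at E3, 9.13 at E5 and 0.744 at E8, and TACSTD1 (EPCAM), an epithelial adhesion molecule, at 34.5, 13.8 and 7.10. The desmosome gene DSP was at 4.08, 1.11 and 0.353, PERP, also of the desmosome, at 3.33, 0.239 and 0.126, and ESRP2, a splicing regulator of epithelia, at 3.30, 0.201 and 0.0146. The membrane protease ST14 was at 6.04, 2.20 and 1.09. TFAP2A, given above with the horizontal and amacrine cell genes, was also among the lower genes of this list. TP63, the transcription factor that defines stratified epithelia, was at 2.003, 0.75 and 0.114. CDH1, E-cadherin, was at 12.9, 8.01 and 3.11, and ITGA6, which other tissues share, went from 20.2 to 24.1.

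The summed level of the 36 matched surface ectoderm genes was 173 FPKM at E3, 83.0 at E5 and 80.0 at E8. ITGA6, at 20.2, 24.1 and 45.8, was the largest part of the E8 sum. KRT5, KRT7, KRT8, KRT75 and KRT80 were listed at 0 at both stages, and all stand on one linkage group of the table. Surface ectoderm lies next to the optic cup at E3, and the part of the dissection in these values was not tested. The pigeon table, normalised apart and made from 3 libraries per stage in the same way, gave 10 of these genes at both stages, with 6 changes below 0, 3 of them by at least 1, and 4 above 0. The 3 were TFAP2C, DSP and TP63. TFAP2C was at 5.13 and 0.857 there, DSP at 10.4 and 4.40, and TP63 at 3.07 and 0.893, while GRHL3 was at 11.2 and 13.4 and ITGA6 at 31.4 and 40.9. In chicken TFAP2C was at 1.17 and 0.193, and GRHL3 at 3.66 and 3.54. No share over all pigeon rows was computed to set beside the pigeon counts.

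**Figure D5:**
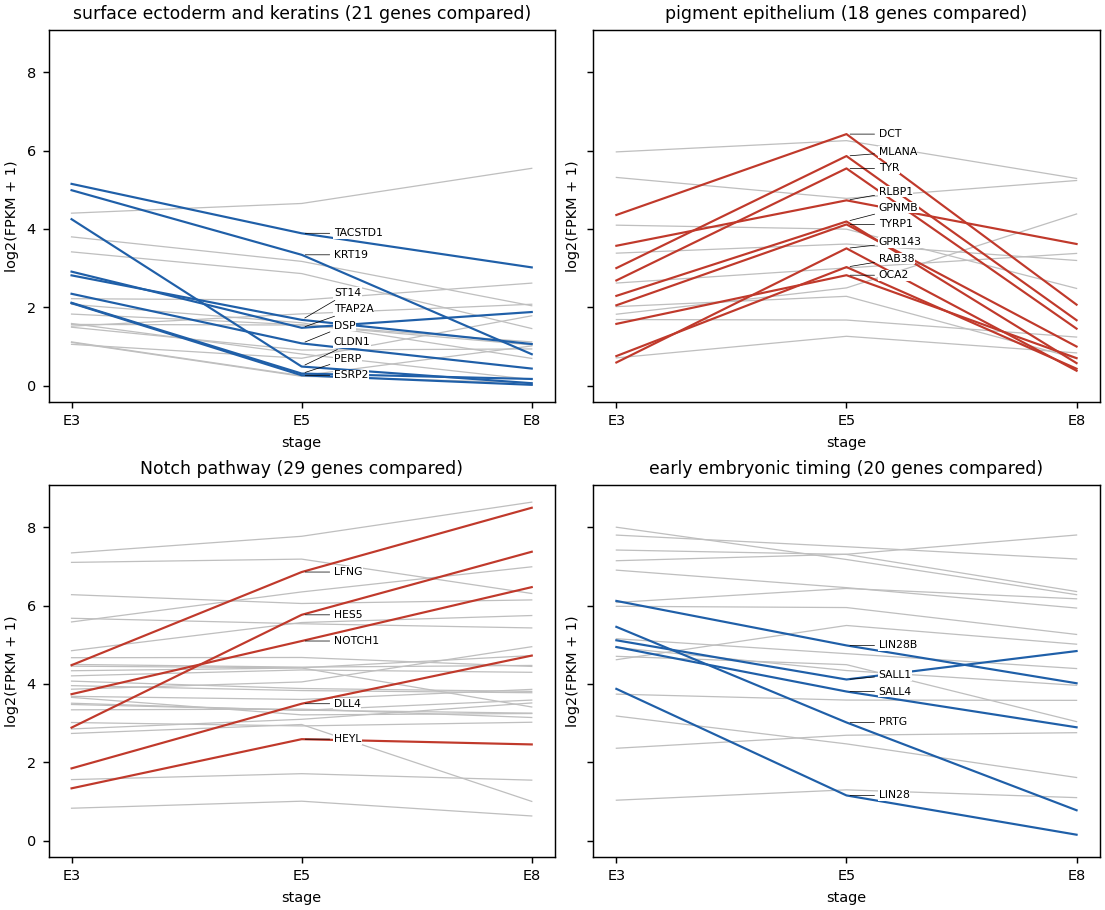
Lines follow log2(FPKM + 1) of each gene compared in 4 lists over E3, E5 and E8, with genes higher at E5 by at least 1 in red, lower in blue and the others in grey. The 8 blue surface ectoderm genes, such as CLDN1 and KRT19, are lower at E5, the 9 red pigment epithelium genes peak at E5, HES5 and LFNG of the Notch pathway go on to higher values, and LIN28 and PRTG go on to lower ones.

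Markers of other tissues around the retina were also present. Of 12 erythroid genes 5 were higher and none lower, with a median of 0.43, and the 5 were the haemoglobin genes: HBAA was at 122 FPKM at E3, 346 at E5 and 26.99 at E8, and HBG2 at 294, 753 and 50.4. Reads of such similar copies may be split between rows, and HBZ has the same locus as an Ensembl ID. The summed level of the erythroid list was 2723, 4471 and 2556, of which CA2, also a gene of the retina, was the largest part. Of 17 endothelial genes 2 were higher, CLDN5 at 2.23, 8.64 and 0.956 and FLT4 at 2.94, 6.96 and 0.0179, and the sum was 62.9, 94.1 and 40.5. The endothelial median was 0.64, with 15 of the 17 changes above 0. Of 29 genes of the mesenchyme around the eye 5 were higher and 3 lower, with a median of 0.47 and a sum of 247, 376 and 97.2. ALX1, a homeobox factor of that mesenchyme, was at 8.79, 3.55 and 0.00262.

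Lens genes had 4 of 16 higher and 1 lower, with a median of 0.35 and a summed level of 730 FPKM at E3, 819 at E5 and 119 at E8. The crystallin genes CRYAA and CRYBA2 were at 7.49, 26.9 and 0.0126 and at 10.3, 32.4 and 0. ASL1, the delta crystallin that fills most of that sum, was at 582, 625 and 2.33, and PITX3, a lens factor, at 9.72, 3.82 and 0.284. Leukocyte genes had no member past 1 among 6 compared of 7 kept. Their sum, which includes the member listed at 0 at 1 stage, was 26.8, 46.6 and 22.4. Muscle genes had 2 of 12 higher and 1 lower, with MYL4, an embryonic myosin light chain, at 16.0, 43.6 and 140. The sums of the erythroid, endothelial, mesenchymal and lens lists were thus higher at E5 than at E3 and lower at E8, and their part in the values of other genes was not tested. Without the genes of these lists and of the pigment epithelium, surface ectoderm and optic stalk lists, a setting added after the data were seen, 258 rows were higher and 131 lower.

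The members next to the threshold show where the line falls. Just inside on the higher side stood PCDH7, C13ORF15, HBZ, FLT4 and RASSF2, with changes of 1.01, and just outside SNAI1, PENK, ONECUT1, MSX2 and RGS3, with changes from 0.97 to 0.99. On the lower side SALL1, VLDLR, EYA1, NUAK1 and XYLT1 stood inside, with changes down to −1.04, and ZMYM6NB, a row named 5S_rRNA, SULF1, FAM103A1 and NOTUM outside, from −0.98 to −0.96.

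For genes that carry the account above, the pigeon values are given side by side and no level is compared between the tables. In pigeon the E3 and E5 values of ATOH7 were 37.5 and 133 FPKM, CHRDL1 was at 46.6 and 92.4, and MLANA at 1.15 and 12.01. PRTG was at 67.4 and 23.0 there, IGFBP2 at 64.2 and 20.9, and COL14A1 at 28.4 and 11.4. Other genes differed from their chicken course: TYR was at 73.1 and 68.5 in pigeon, GPNMB at 42.8 and 42.6, GBE at 1.39 and 1.61, and MOXD1 at 28.8 and 31.3. HBZ was at 2120 and 657 there and CA2 at 1891 and 930, both lower at E5, whereas in chicken both were higher. CXCL12, from a pigeon model of 207 bases, was at 19.2 and 10.03. Of the 25 highest changes in chicken 11 could be compared in pigeon, where 10 were above 0 and 5 of these at least 1. Of the 25 lowest 7 could be compared, where 6 were below 0 and 5 of these by at least 1. CHRDL1, GPNMB, CXCL12, HBZ and CA2 are not among these 50. The shares of all pigeon rows above 0 or past 1 were not computed, so the pigeon counts have no background to be read against.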

How the data were processed

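Groups were taken from the labels. The deposited FPKM were computed by the authors per gene, with 1 pooled column per stage, per the file headers. The tools named are Bowtie2, TopHat2, Cufflinks and Cuffdiff, without versions, per the submitters' processing notes. Genome build and annotation: not given in the sources used here. Positions are those of the table, counted from 1, and several rows can share a locus.

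Changes of log2(FPKM + 1) were computed with Python 3.11.15, pandas 2.3.3 and NumPy 2.4.6. The counting was run on simulated columns with known changes put into well-expressed rows. These columns held no noise, so the run checks the code and not the reliability of the counts. No test was run, because the pooled columns give no spread. Lists (40) and families (49) were counted over symbols listed in 1 row. Older symbols were resolved for 955 rows with RefSeq gene names (assembly GRCg7b). A further 8 rows were refused, by a rule on differing chromosomes or by hand after matching. Some family patterns were narrowed after values were seen because they took in genes of other families.

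Members and lists were chosen with earlier results of these data known. Named were, among symbols with an FPKM of at least 5, the 25 highest and 25 lowest changes, the 15 largest gains and losses in FPKM, the 10 highest levels per stage, the 4 largest changes of a list or family, its members past 1, and the 5 genes on either side of each threshold. Genes under 5 FPKM at both stages, other list members given for comparison, and those of the closing section named outside this rule were chosen after their values were seen. Alternatives were pseudocounts of 0.1 and 5, filters, scalings, rows at 0, named rows and symbols in several rows. Results of some genes that the rule takes in are not reported here.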

Additional observations from a re-analysis of the deposited data

How the results depend on the processing

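The counts of 286 rows higher and 145 lower depended on how low values were treated. A pseudocount of 0.1 gave 607 and 348, a pseudocount of 5 gave 79 and 44, and an FPKM of at least 5 gave 186 and 96. Rows with a name gave 210 and 95, and a change of at least 2 gave 25 and 15. Among the distinct list genes, 81 higher and 36 lower, a pseudocount of 0.1 gave 124 and 55 and one of 5 gave 35 and 17. The scalings gave 257 to 319 higher and 131 to 165 lower, and including rows at 0 gave 345 and 182. No setting moved the median of all rows by over 0.1, and the higher share of rows past 1, 66.4%, ran from 60.9% to 70.9%. Of 348 named genes none changed direction among those past 1, and of the 124 past 1, 77 stayed past 1 under every setting run. The median of the surface ectoderm list ran from −1.31 to −0.28, that of pigment epithelium from 0.49 to 1.57 and that of proneural factors from 0.62 to 1.63. Dropping the minimum FPKM left the counts at 286 and 145 but moved list medians, since low genes enter a list only through their higher stage. The photoreceptor median went from 0.61 to 0.14 and that of pigment epithelium from 0.92 to 0.49, while that of ganglion cells stayed at 0.47. Medians near 0 changed sign under some setting in the cell cycle, cell death, hedgehog, insulin-like growth factor, axon guidance, stress response, matrix, junction, optic stalk and muscle lists, and that of the amacrine list under the filter at 5. No paired analysis was possible because the table holds 1 pooled column per stage. For the same reason libraries could not be left out in turn. The search for promoter motifs was not run. FPKM without read totals gives no limit from depth, and values under about 1 rest on an unknown number of fragments.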

Other observations

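Rows without a gene name held part of the changes. Of 2731 such rows 76 were past 1 on the higher side and 50 on the lower, 4.61% in all, beside 3.19% of all rows compared. A named row lay within 10000 bases of 48 of the 76 and was itself higher in 15 of these, and within that distance of 28 of the 50, where it was lower in 2. The like share was not computed for all 1823 unnamed rows with a named row at that distance. Neighbouring rows past 1 in the same direction formed 11 runs of at least 3 rows, 9 higher and 2 lower, with 39 rows in all, of which 23 had no name. One run on chromosome 21 ends with HES5 and holds 2 Ensembl IDs at higher levels: ENSGALG00000001136 was at 50.8 FPKM at E3, 204 at E5 and 421 at E8, and ENSGALG00000021689 at 39.8, 170 and 499. A run on chromosome 2 from 69729894 to 69921461 holds RNF152, at 1.23, 5.24 and 0.950, 3 unnamed rows with a like course, and CDH20, a cadherin that went on to 34.4 at E8 from 0.885 and 4.16. On chromosome 4 the 3 unnamed rows behind HHIP were at 1.41 to 2.47 at E5. The lower runs, on chromosomes 1 and 2, hold unnamed rows alone.

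Further genes past 1 stood outside the lists and were chosen after their values were seen. On the lower side ANXA1, annexin A1, was at 4.18 FPKM at E3, 0.718 at E5 and 0.172 at E8, and the receptor MET at 3.47, 0.192 and 0.0893. IGDCC3, a receptor related to PRTG, was at 93.7, 32.9 and 9.93 in one row and 9.16, 4.53 and 1.89 in another at the same locus. CLEC19A was at 108.6, 47.2 and 3.56, and TMEM200A at 88.6, 38.9 and 10.4. On the higher side GPM6A, a membrane protein of growing axons, was at 10.7, 34.7 and 116, PTN, the growth factor pleiotrophin, at 8.87, 25.3 and 75.2, and SRRM4, a splicing factor of neurons, at 1.75, 6.67 and 25.2. RORB, a nuclear receptor of photoreceptor and amacrine fate, was at 8.19, 20.3 and 86.3. BLIMP-1 (PRDM1), a repressor in young photoreceptors, was at 0.392, 1.82 and 20.5. MYBL1, a factor related to the MYB oncogene, was at 15.8, 34.9 and 109.

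Of the 96 rows left out because 1 stage was listed at 0, 59 were at 0 at E3 and 37 at E5, and 53 were under 5 FPKM at the other stage. Small RNA genes made up 35 of them, beside 103 of the 13529 rows compared. The 6 rows of a locus on chromosome 1 from 104452569 to 104506283, which includes 5_8S_rRNA, summed to 19338.1 FPKM at E3, 2.63% of all FPKM there, and were listed at 0 at E5 and E8. LBR, the lamin B receptor, was listed at 213.5, 0 and 0, and HPGDS, a prostaglandin D synthase, at 0, 14.9 and 1.78. No fold is given for these, since a 0 in this table can be a failed estimate.

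Small RNA genes supplied 2 of the 25 highest changes and 5 of the 25 lowest. Among the rows compared at any level, 103 were small RNA genes, beside 9428 rows with other symbols. The class rests on how a symbol begins, so it can take in other genes. Its mitochondrial row gga-mir-3527, for example, spans positions 8331 to 9014 and had 8800 FPKM at E3. Without the rows of this class 280 rows were higher and 138 lower.

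Among chromosomes with at least 100 rows compared, the share of rows higher ran from 0.735% on chromosome 19 to 4.81% on chromosome 22. The Z sex chromosome lay inside this range, with 26 of 786 rows higher (3.31%) and 7 lower (0.891%) and a median change of 0.02. The 5 rows of the W chromosome had changes from −0.86 to −0.10, with UBAP2 at 9.12, 6.32 and 12 FPKM over the 3 stages. The labels do not give the sex of the embryos.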
